A study of Mus musculus with 8 samples.

Results

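The regions described here are stretches of the 19 mouse autosomes that carried a peak of H3K27me3 in both control libraries and in neither library of Smchd1-deleted cells. Peaks of the 4 lists were merged wherever they overlapped or touched, which gave 46591 autosomal regions, and 1110 of them (2.38%) met this rule. They are called lost regions below, which says only where a peak was listed. The members were thus chosen by presence and absence in the deposited peak lists of all 4 libraries. Regions with the opposite pattern, a peak in both deleted and in neither control library, are called gained, and those with a peak in all 4 lists are called kept. Because the lists themselves chose the lost regions, their peak values are described without a test.

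The cells were female neural stem cell lines grown from mouse embryos at E14.5, of a C57BL/6 129/Castaneus mixed strain. The control group, del/fl (controls below), carried 1 deleted and 1 floxed Smchd1 allele and was not transduced. The del/del group (deleted cells below) had been transduced with the MSCV-Cre-puro retrovirus, placed in puromycin 24 h later and harvested after 7 days. All cells of both groups also carried a maternal 129 X chromosome with the Xist deltaA allele and a paternal Castaneus X chromosome. Each group had 2 H3K27me3 libraries, and each of those had a whole-cell extract library of its own. Only the del/del cells had met virus, Cre and puromycin, so these and the deletion of Smchd1 cannot be told apart. The control cells already had 1 deleted allele, the lines had been divided between the groups, and the labels do not name separate embryos for the libraries. The spread between libraries may therefore be partly technical, and the lists do not separate the 129 from the Castaneus allele.

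H3K27me3 is the trimethyl mark that Polycomb repressive complex 2 places on lysine 27 of histone H3. It lies in broad domains over silent developmental genes, often around CpG islands, and in neural stem cells it covers many regulators of other lineages. Smchd1 is a chromatin protein of the structural maintenance of chromosomes family, known for its part in keeping the inactive X chromosome, imprinted clusters and clustered protocadherin genes silent.

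Promoter sequence is shown for 5 genes whose annotated start lay in a lost region, because starts rich in CpG made up a smaller share in lost than in kept regions. The windows run from 250 bases before to 50 after a RefSeq start (GRCm38.p6, the assembly of mm10), are printed 5′ to 3′ on the gene's strand, and have every CG in capitals. Olfr311 (an olfactory receptor, chr11:58840866-58841165, plus strand) and Smn1 (survival motor neuron protein, chr13:100122955-100123254, plus strand) each had 2 CG in the window. Repeated sequence was not looked for in any of the printed windows. Emb (embigin, a cell adhesion protein, chr13:117220323-117220622, plus strand) had 14 CG, and Pcsk1 (a prohormone convertase, chr13:75089607-75089906, plus strand) had 13 CG. D7Ertd143e, a transcript whose start lies in the miR-290 cluster (chr7:3218534-3218833, plus strand), had 14 CG and was chosen after its values were seen.
Olfr311: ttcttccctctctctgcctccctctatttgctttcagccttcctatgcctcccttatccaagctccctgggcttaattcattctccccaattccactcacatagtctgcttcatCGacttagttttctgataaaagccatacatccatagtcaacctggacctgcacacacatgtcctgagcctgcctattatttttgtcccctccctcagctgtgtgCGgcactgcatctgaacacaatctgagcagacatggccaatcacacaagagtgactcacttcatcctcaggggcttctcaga
Smn1: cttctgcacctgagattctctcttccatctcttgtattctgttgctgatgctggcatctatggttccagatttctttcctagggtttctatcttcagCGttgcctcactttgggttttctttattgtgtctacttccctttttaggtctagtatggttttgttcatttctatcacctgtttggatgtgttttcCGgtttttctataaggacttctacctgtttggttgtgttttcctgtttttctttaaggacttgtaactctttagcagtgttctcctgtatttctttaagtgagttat
Emb: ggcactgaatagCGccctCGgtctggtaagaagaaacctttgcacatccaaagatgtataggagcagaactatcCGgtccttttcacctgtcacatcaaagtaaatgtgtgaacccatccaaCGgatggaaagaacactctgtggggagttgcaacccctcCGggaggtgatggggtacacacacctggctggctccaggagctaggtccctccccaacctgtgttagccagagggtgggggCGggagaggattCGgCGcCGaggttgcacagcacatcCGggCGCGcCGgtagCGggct
Pcsk1: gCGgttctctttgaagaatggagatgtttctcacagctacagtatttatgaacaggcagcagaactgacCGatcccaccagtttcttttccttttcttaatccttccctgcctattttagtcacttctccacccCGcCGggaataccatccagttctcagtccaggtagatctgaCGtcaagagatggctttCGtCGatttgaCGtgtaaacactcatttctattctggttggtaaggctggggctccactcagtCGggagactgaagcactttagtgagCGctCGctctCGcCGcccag
D7Ertd143e: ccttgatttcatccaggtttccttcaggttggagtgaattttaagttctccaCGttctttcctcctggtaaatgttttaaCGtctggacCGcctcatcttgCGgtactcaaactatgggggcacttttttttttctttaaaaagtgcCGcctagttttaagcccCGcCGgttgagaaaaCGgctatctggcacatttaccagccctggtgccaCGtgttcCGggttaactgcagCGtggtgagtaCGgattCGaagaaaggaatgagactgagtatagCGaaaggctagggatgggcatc

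Mature miRNAs are shown because 1 lost region held 5 hairpins of the miR-290 cluster, which is known for its high level in embryonic stem cells. Seeds (bases 2 to 8) are in capitals, the sequences are RefSeq's, and the family was chosen after its values were seen. The mature miR-290a-5p and miR-292a-5p shared the seed CUCAAAC.
miR-290a-5p: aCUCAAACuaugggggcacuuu
miR-292a-5p: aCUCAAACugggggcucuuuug
miR-290a-3p: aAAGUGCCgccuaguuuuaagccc
miR-291b-5p: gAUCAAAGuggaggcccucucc
miR-291b-3p: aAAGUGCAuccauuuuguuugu

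The 4 libraries differed more by replicate number than by genotype in what they listed. MACS2 kept 14064030 and 12819919 ChIP tags in del/del 1 and 2 and 13288499 and 11793402 in del/fl 1 and 2. The rate of redundant ChIP tags that MACS2 gave did follow the genotype. It was 0.41 and 0.42 in del/del 1 and 2 and 0.34 and 0.36 in del/fl 1 and 2. The lists held 17102 and 26327 autosomal peaks for the deleted cells and 17564 and 26637 for the controls, and the lowest listed pileup was 6 in both libraries numbered 1 and 5 in both numbered 2. Peaks covered 1.34% and 1.79% of the autosomes in del/del and 1.45% and 1.93% in controls. The means were 1.57% ± 0.323 (SD, n = 2) in del/del and 1.69% ± 0.338 (SD, n = 2) in del/fl, and the groups overlapped (two-sided exact permutation test, p = 0.667, where 2 against 2 can give no less than 0.333). The mark is one of silent genes. Of the 4 neural stem cell markers with any region at a gene end, among 20 looked for, 2 had a kept one. Over all 33069 autosomal genes, 8064 had a region at an end and 3975 had a kept one. With so few markers, these counts give no check of cell identity.

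The 1110 lost regions lay inside the range given by the other ways of pairing the 4 lists. The opposite pattern, gained, held 841 regions (1.81%). Pairs that cross the genotypes held 1895 regions found only in the libraries numbered 2 (4.07%), 314 found only in those numbered 1 (0.674%), 760 only in del/del 1 with del/fl 2 (1.63%) and 771 only in del/del 2 with del/fl 1 (1.65%). The lost count was thus second among the 6 pairings, behind a pair that mixes the genotypes. With the 4 lists shortened to an equal length of 17102 peaks, by −log10 q, it was the highest, at 859 regions against 590 to 756. The rule applied anew to peaks with a −log10 q of at least 2 gave 322 regions. They were fewer than 394 with the gained pattern and 547 found only in the libraries numbered 1. At a −log10 q of at least 5 it gave 69, the highest count, against 9 to 30 in the other pairings. Only 59 of the 322 and 1 of the 69 overlapped one of the 1110. The others lay in merged regions with a del/del peak in the deposited lists. Values given below at these thresholds are of regions chosen anew in this way. The order of the pairings therefore moved with the threshold.

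Of the 9347 regions with a peak in both del/fl lists, 1110 (11.9%) had none in del/del, 1592 had a peak in 1 del/del library and 6645 in both. Seen from the other side, 841 of the 8701 regions with a peak in both del/del lists (9.67%) had none in del/fl.

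**Figure D1:**
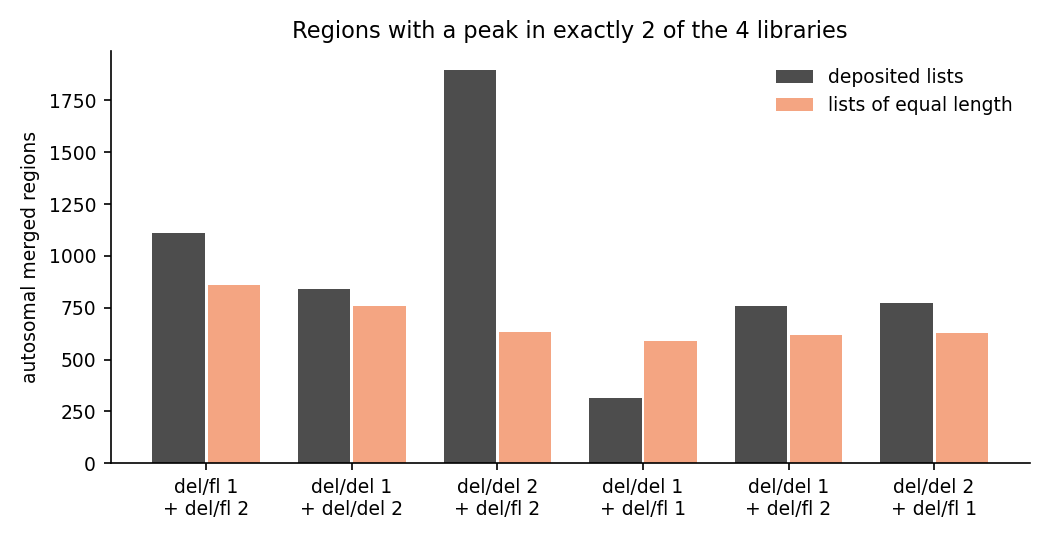
Bars give the number of autosomal merged regions with a peak in exactly 2 of the 4 libraries, for each of the 6 pairings, with the deposited lists (dark) and with lists of equal length (light). The lost regions (del/fl 1 + del/fl 2) numbered 1110 and 859, between 314 and 1895 of the pairings by replicate number with the deposited lists and above all others with equal lists.

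Lost regions were short and weak compared with kept ones. Together they covered 1.39 Mb, with a median length of 1112.5 bp (209 to 4514 bp), while kept regions had a median of 4002 bp. The other pairings had medians of 861.5 to 1122 bp, gained regions 997 bp. The share of regions that were lost was smaller the longer they were. Among those with a peak in both del/fl lists it was 62.8% up to 1 kb (467 of 744), 24.2% from 1 to 2 kb, 6.54% from 2 to 3 kb and 0.997% from 3 to 5 kb. None of the 2549 regions longer than 5000 bp was lost. For gained regions the shares were 60.7%, 18.9%, 4.01%, 0.936% and 0.0784% of those with a peak in both del/del lists. The length of a merged region takes in the peaks of all 4 lists, so del/del peaks can lengthen kept regions but not lost ones. The difference in length and the fall of these shares are thus partly set by the rule.

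The fold enrichment of a peak is the authors' ratio of pileup to local background. In lost regions its median was 3.15 in del/fl 1 (2.59 to 4.82) and 2.99 in del/fl 2 (2.55 to 7.04), against 3.67 and 3.55 in kept regions. The pileup, the depth of stacked tags, had medians of 6.70 and 5.80, close to the lowest listed values of 6 and 5. The median −log10 q was 1.73 and 1.44, against 2.65 and 2.40 in kept regions. Both del/fl peaks reached a −log10 q of 2 in 59 lost regions (5.32%) and in 57.0% of kept regions, and neither did in 673 lost regions (60.6%) and in 17.04% of kept ones. Most lost regions thus rested on peaks close to the listing threshold. Gained regions had similar values in del/del 1 and 2, with median folds of 3.12 and 2.87 and median −log10 q of 1.90 and 1.497.

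The del/fl peaks of a lost region often overlapped only in part. The median share of the region covered was 61.3% in del/fl 1 and 80.6% in del/fl 2. The stretch covered in both had a median of 32.2% of the region, and it reached at least 50% in 303 lost regions (27.3%).

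**Figure D2:**
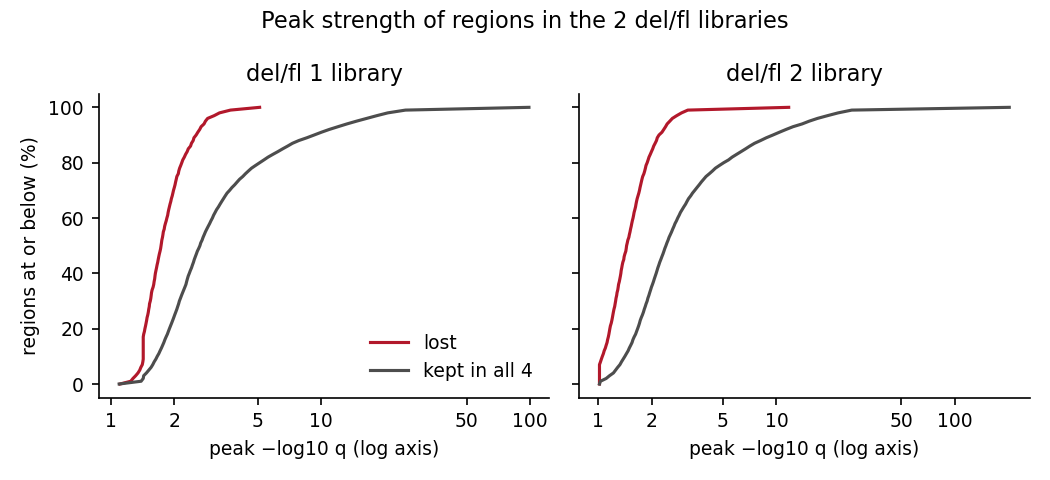
Cumulative percentage of regions (vertical axis) at or below a given peak −log10 q (horizontal log axis) in each del/fl library, for lost regions (red) and regions kept in all 4 libraries (grey). The lost curves lie to the left, with medians of 1.73 and 1.44 against 2.65 and 2.40.

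At the edge of the rule, the 3 weakest lost regions were chr1:128502676-128504394 (outside genes), chr10:84572977-84573973 (at an end of Gm34515) and chr4:115726861-115727394 (outside genes), where the higher del/fl −log10 q was 1.13, 1.21 and 1.23. Just outside stood regions with both del/fl peaks and 1 del/del peak. The longest were chr17:26720872-26729846 in Crebrf, a transcriptional regulator gene, chr11:98598102-98604497 at Lrrc3c and chr17:25297049-25303272 at Prss34. All of these had their del/del peak in del/del 2, which covered 42.9%, 36.4% and 16.1% of the region. In the 1189 regions missing only from del/del 1, the del/del 2 peak had a median −log10 q of 1.53 beside 1.84 and 1.59 in del/fl 1 and 2. In the 403 regions missing only from del/del 2, the del/del 1 peak had a median of 1.93 beside 1.84 and 1.52.

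Lost regions occurred on every autosome. They made up 1.71% (chromosome 14) to 3.40% (chromosome 19) of an autosome's merged regions, with a median of 2.22%. By number, chromosome 2 had 118, chromosome 9 had 91, chromosome 1 had 89 and chromosome 7 had 85. Lost regions outnumbered gained ones on 17 of 19 autosomes, the exceptions being chromosome 5 (70 lost, 91 gained) and chromosome 14 (37 lost, 46 gained). Chromosome 19 had 49 lost and 16 gained regions. With the rule applied anew, its share was also the highest of the 19 with equal lists (3.38%) and at a −log10 q of at least 2 (4.59%). It ranked 10 at a −log10 q of at least 5. Most regions counted at these thresholds of −log10 q were not among the lost regions of the deposited lists. Out of the regions with a peak in both del/fl lists, however, the lost share of chromosome 19 was 13.5%, below chromosomes 16 (15.7%), 1 (15.2%) and 3 (13.9%). The number of autosomes with more lost than gained regions was 13 with equal lists and 7 at a −log10 q of at least 2.

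**Figure D3:**
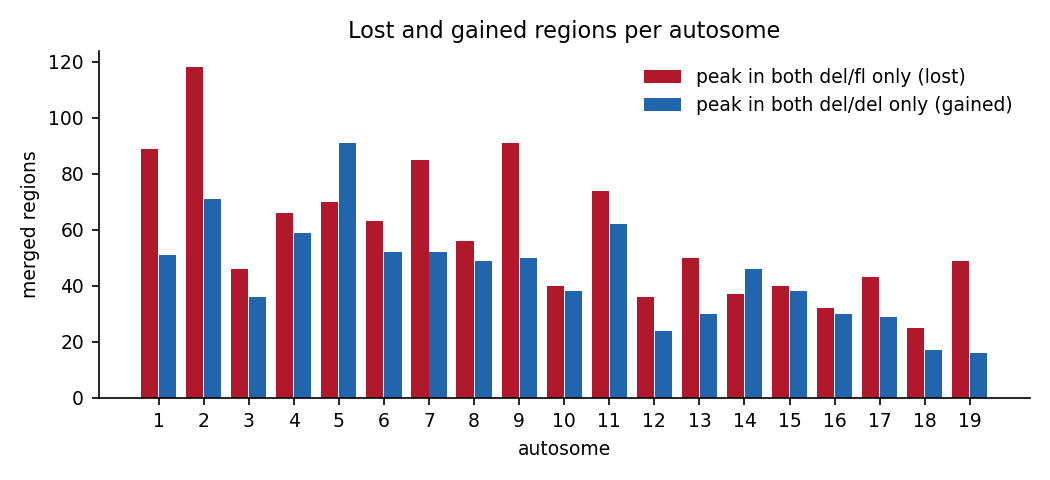
Bars give the number of lost (red) and gained (blue) merged regions on each autosome. Lost regions outnumbered gained ones on 17 of 19 autosomes, with 49 against 16 on chromosome 19, and gained regions were more numerous on chromosomes 5 and 14.

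The lost regions were scattered for the most part. Joined where they lay within 100 kb of the next, 746 stood alone and 106 (9.55%) fell into 29 clusters of 3 or more, the largest with 8. Gained regions formed 26 such clusters, with up to 23 regions, and those found only in the libraries numbered 2 formed 117. The pairing with the most regions thus had the most clusters, and the number of clusters of lost regions moved with the settings, to 23 with equal lists, 12 with peaks of at least 500 bp and 3 at a −log10 q of at least 2.

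The largest cluster spanned 254 kb at chr2:104908601-105162247, over Ccdc73, Eif3m, a translation initiation factor gene, and Wt1, a zinc finger transcription factor of kidney and gonad development, with its antisense RNA Wt1os. Its 8 lost regions were 702 to 3039 bp long. Of these, 4 lay in the body of Ccdc73, 2 between genes, 1 in Wt1os and 1 in Wt1. Peaks covered 17.9% and 20.6% of the span in del/del and 23.0% and 26.4% in controls. Lost regions count toward the cover of the spans and genes they lie in, and by the rule they add none in deleted cells. The order of the groups in such cover, here and below, is thus set partly or wholly by how the regions were chosen. A separation of the groups there is no result of its own. The domain that overlaps Wt1 and Wt1os, chr2:105109458-105148348, was kept, with a cover of 93.5% and 96.3% in deleted cells and 97.5% and 97.8% in controls. The lost regions stood beside this domain, in a stretch that held 33 merged regions in all and 3 kept ones. Within Ccdc73, including 2.5 kb on each side, the cover was 0.209% and 3.00% in deleted cells and 8.16% and 11.3% in controls.

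**Figure D4:**
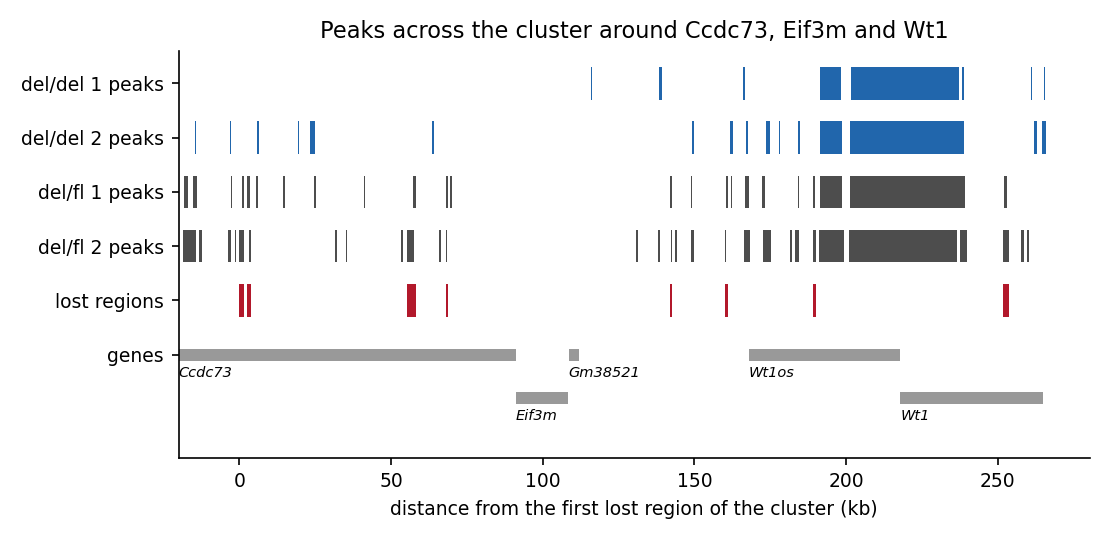
Listed peaks of each library, lost regions and genes over the chromosome 2 cluster, by distance in kb from the start of the first lost region, with 20 kb added on each side. Of the 8 lost regions, 4 lay in Ccdc73 and 4 closer to Wt1 and Wt1os, where a broad domain was present in all 4 libraries.

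The next clusters had 6 lost regions each. At chr13:48039136-48215469, which holds lncRNA genes (A330033J07Rik, Gm36101, Gm36346 and Gm52065), peaks covered 8.87% and 12.3% in deleted cells and 10.97% and 16.6% in controls. At chr19:4818739-5005719 the cover was 5.84% and 8.81% in deleted cells and 10.5% and 14.54% in controls. The chromosome 13 groups overlapped. Those of chromosome 19 did not, but the lost regions themselves add to the cover in controls alone, so this is no separate result. Genes in the chromosome 19 cluster included Actn3, a muscle actinin gene with a lost region in its body, Peli3, a ubiquitin ligase gene with one at an end, and Npas4, an activity-dependent neuronal transcription factor gene with one at an end.

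The densest cluster was chosen after its values were seen. It put 4 lost regions into 17.1 kb at chr7:143213676-143230807, inside Kcnq1ot1, the imprinted noncoding RNA that silences its neighbours in cis, and inside Kcnq1, a potassium channel gene on which it lies. Peaks covered 6.96% and 7.62% of these bases in del/del and 25.2% and 33.7% in controls. The first, chr7:143213676-143214189, lay at an annotated end of Kcnq1ot1 with 97.5% and 49.0% of it covered in del/fl 1 and 2. The others were 542, 1361 and 683 bp long. A kept region between them, chr7:143215076-143217842, was covered to 35.7% and 34.7% in deleted cells and 38.3% and 78.9% in controls. Over the whole of Kcnq1ot1 with 2.5 kb on each side, the cover was 3.06% and 3.53% in deleted cells and 12.8% and 8.44% in controls.

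Other clusters seen after the values were known had 5 lost regions near Gata2, a regulator of blood cell formation (chr6:88175662-88283878), and 5 in and around Lmx1a, a homeodomain factor of the dorsal neural tube and midbrain (chr1:167662637-167904218). The cover of the Gata2 span was 35.4% and 47.05% in deleted cells against 39.8% and 50.1% in controls. Over the Lmx1a span it was 11.4% and 18.8% against 11.8% and 18.005%. In both spans the genotypes overlapped, with the libraries numbered 2 above those numbered 1, although 5 regions each were listed as lost.

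In their distance to kept regions, lost regions were close to the other pairings. The median distance to a kept region was 24075 bp. A kept region lay within 5 kb of 300 lost regions (27.03%), against 27.2% to 31.7% in the other pairings, and within 1 kb of 118 (10.6%), against 9.16% to 13.4%. No kept region lay within 100 kb of 305 lost regions (27.5%). Of the 6645 kept regions, 352 (5.30%) had a lost region within 5 kb. The nearest peak of any del/del list was a median of 2273.5 bp away, and 361 lost regions (32.5%) had such a peak within 1 kb. A gained region lay within 100 kb of 180 lost regions (16.2%). The 10 kb on each side of a lost region had a mean cover of 6.92% and 10.4% in deleted cells and 8.72% and 12.01% in controls. Around gained regions it was 8.93% and 11.96% in deleted cells and 7.33% and 10.4% in controls. Same-numbered libraries had more flank cover in controls around the regions of the 4 pairings that mix the genotypes too, for example 8.09% and 11.7% in deleted cells and 8.65% and 13.02% in controls around those found only in the libraries numbered 1.

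In relation to genes, the lost regions resembled the regions as a whole. A lost region overlapped a gene end, meaning 2.5 kb to each side of either annotated end, in 237 cases (21.4%), a gene body only in 379 (34.1%), and no gene in 494 (44.5%). Over all autosomal regions the shares were 21.4%, 31.3% and 47.3%, while kept regions were at a gene end in 48.2% of cases. The difference from kept regions remained among those of up to 2 kb, at 21.4% lost against 35.4% kept.

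Start sites inside lost regions were poorer in CpG than those inside kept regions. Of 31396 RefSeq promoter windows, 33 windows of 30 genes overlapped 28 lost regions, and 2117 overlapped kept regions. The median window in lost regions had 5 CG and a GC content of 47.7%. The medians were 14 and 59.0% in kept regions, 7 and 53.0% over all windows, and 3 and 48.7% in gained regions. A ratio of observed to expected CG above 0.6, a usual mark of a CpG island, was found in 7 of 33 windows (21.2%), against 46.6% in kept regions and 36.4% over all. In the printed windows, Olfr311 and Smn1 were at 0.134 and 0.182, and Pcsk1 and D7Ertd143e at 0.721 and 0.825. Searched on both strands, TATAAA occurred in 18.2% of the lost windows and 13.6% of all, CCAAT in 36.4% and 37.3%, and GGGCGG, which itself holds a CG, in 24.2% and 35.98%.

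**Figure D5:**
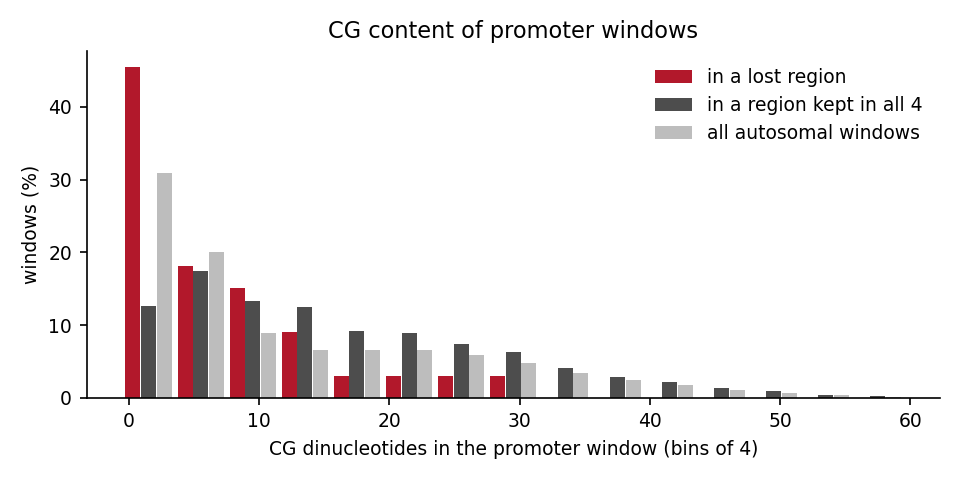
Percentage of promoter windows of 300 bases (vertical axis) by number of CG in bins of 4 (horizontal axis), for windows in lost regions (red), in kept regions (dark) and over all autosomal genes (light). The median was 5 CG in lost regions, 14 in kept regions and 7 over all.

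The 10 longest lost regions ran from 3350 to 4514 bp. The longest, chr19:19922098-19926611, lay in the body of Gm32469 and was covered to 76.6% in del/fl 1 and 35.2% in del/fl 2, with fold enrichments of 2.69 and 2.84. The next, chr15:82658048-82662401, lay outside genes, 37092 bp from Cyp2d34, with folds of 2.96 and 2.85. A region of 3402 bp at Tap1, a peptide transporter of antigen presentation (chr17:34191686-34195087), was covered to 63.0% and 97.6%, with folds of 3.47 and 2.80. Tap1 with 2.5 kb on each side was covered to 1.84% and 2.25% in deleted cells and 16.1% and 29.5% in controls. Most of that control cover was the lost region itself. At Vipr1, a receptor of vasoactive intestinal peptide, the region chr9:121667898-121671270 was covered to 15.1% and 86.7%. Thsd4, a thrombospondin-domain gene, held the tenth (chr9:60255494-60258843) and 4 further lost regions in its body, and 5 was the highest number for 1 gene, shared with A330033J07Rik. Even so, Thsd4 was covered to 21.7% and 28.6% in deleted cells and 22.8% and 26.3% in controls, and the groups overlapped.

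By enrichment, the highest lost region was a stretch of 300 bp outside genes, chr1:44951114-44951413, 154276 bp from Gulp1. Its fold enrichment was 4.82 in del/fl 1 and 7.04 in del/fl 2, its pileup 10.9 and 19.2 and its −log10 q 5.11 and 11.7. It was the only lost region in which both peaks reached a −log10 q of 5, and the nearest kept region was 887085 bp away. The next was chr16:92490979-92492795 in the body of 2410124H12Rik, with folds of 3.90 and 4.01. Among the 10 with the highest fold in both libraries, Pcsk1 was the one with a region at a gene end, chr13:75089645-75091553, at 3.73 and 3.92. That region covered 262 of the 300 bases of the promoter window printed above. A del/del peak lay 7 bp from another of the 10, chr11:36676975-36677213 in Tenm2, and 8 bp from chr19:3439542-3439955, so both had del/del peaks as direct neighbours.

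Of 8064 autosomal genes with any region at an end, 268 (3.32%) had a lost one there, and 69 of those also had a kept region at an end. Of all 8064, a kept region lay at an end of 3975. Among protein-coding genes the count was 168 of 5228 (3.21%). The 12 protein-coding genes with the most lost bases at their ends were Smn1, AF366264, Cnnm2, Emb, Olfr311, Ttll9, Rph3al, Foxo6, Hpse, Bcl3, Pcsk1 and Dmrtc2, each through 1 lost region.

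At Smn1 the lost region chr13:100120420-100123377 was covered fully in del/fl 1 and to 39.2% in del/fl 2, with folds of 3.39 and 3.35, and the gene had no del/del peak within 2.5 kb. Cnnm2, a gene of magnesium homeostasis, had no del/del peak either, and its region chr19:46756078-46758615 was covered to 11.3% and 100%, with folds of 2.96 and 2.93. The region at Emb, chr13:117220327-117222850, was covered to 62.0% and 100%, again with no del/del peak at the gene. At Smn1 and Cnnm2 the lost region made up all of the control cover. Peaks in the control libraries alone at these 3 genes thus largely restate how the regions were chosen.

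At other genes the lost region was a fragment beside peaks that stayed. Foxo6, a forkhead factor, had chr4:120264445-120266856 (covered to 17.9% and 100%) beside a kept region, and its cover with 2.5 kb on each side was 31.0% and 41.1% in deleted cells and 31.7% and 52.1% in controls. Bcl3, a coactivator of the NF-kappaB pathway, was covered to 16.6% and 25.04% in deleted cells and 26.1% and 41.6% in controls. At Pcsk1, which had no kept region, the cover was 0 and 1.79% in deleted cells and 1.30% and 3.63% in controls. The groups overlapped at Foxo6 and Pcsk1. They did not at Bcl3, but its lost region adds to the cover in controls alone, so this is no separate result.

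Among gene lists, counts are of genes with a lost region at an end out of those with any region there, to be read beside 3.32% over all genes. In the smaller lists a share rests on very few genes, and no list was tested. Developmental transcription factors, the usual seat of the mark, had 4 of 182 (2.20%): Foxo6, Gata4, Meis3 and Pax3. All but Meis3 also had a kept region at an end, and 174 of the 182 genes did. Over all genes with a region at an end, 3975 of 8064 did. Pax3, a paired-box factor of neural crest, was covered to 78.9% and 86.7% in deleted cells and 76.8% and 82.1% in controls, with a lost stretch of 1501 bp at chr1:78099156-78100656. Gata4, a heart and endoderm factor, was covered to 69.8% and 75.8% in deleted cells and 68.1% and 75.6% in controls. The groups overlapped at both genes. Signalling ligands and antagonists had 0 of 52, with lost regions in the bodies of Wnt3a, Fgf7 and Fgf18.

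Clustered protocadherins, neuronal adhesion genes of chromosome 18, had 3 of 20 (15.0%): Pcdha11, Pcdhb1 and Pcdhb15. Only 1 of the 20 had a kept region at an end, against 3975 of 8064 over all genes. The region at Pcdha11, chr18:37010588-37012210, was covered to 100% in del/fl 1 and 40.4% in del/fl 2, with folds of 3.85 and 3.46. It lay in the bodies of 10 further Pcdha genes, whose annotated bodies overlap, so it counts as 1 region. At Pcdhb1 the region chr18:37264073-37265584 was covered to 76.6% and 63.5%, but the gene with 2.5 kb on each side was covered to 0 and 28.5% in deleted cells and 21.4% and 12.9% in controls. At Pcdhb15 that cover was 0 in both libraries of deleted cells and 8.95% and 9.42% in controls. The groups overlapped at Pcdhb1. They did not at Pcdhb15, but its lost region is part of the control cover and made up all of it in del/fl 2. Imprinted genes had 1 of 24 (4.17%), Kcnq1ot1.

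Neuronal signalling genes added a few. Neurotransmitter receptors had 5 of 66 (7.58%), among them Adra1a, Chrnd and Drd5. At Chrnd, a muscle acetylcholine receptor subunit, the cover was 0 and 9.91% in deleted cells and 20.3% and 6.43% in controls. Potassium channels had 3 of 53 (5.66%), among them Kcnh5 and Kcnj11. Kcnj11, an inward rectifier, was covered to 0 in both libraries of deleted cells and 8.90% and 3.36% in controls. Its lost region made up all of that control cover. Among neuronal markers 1 of 12 (8.33%) was counted, Nefm, a neurofilament gene, with a cover of 14.1% and 8.22% in deleted cells and 26.1% and 47.7% in controls.

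Other gene families had lost regions as well. Olfactory and vomeronasal receptors had 8 of 121 (6.61%). Olfr311 had a lost region of 2520 bp over its start and a cover of 3.83% and 21.4% in deleted cells and 63.3% and 41.4% in controls. Olfr49 was covered to 24.2% and 0 in del/del and 43.6% and 11.97% in controls. Type I interferons had 1 of 8 (12.5%), Ifna1, with 0 in both libraries of deleted cells and 14.1% and 24.6% in controls. The lost region at Ifna1 made up all of that control cover. Cytochrome P450 genes had 3 of 28 (10.7%), Cyp1a1, Cyp27a1 and Cyp4f37. Zinc finger protein genes had 4 of 86 (4.65%), Zfp160, Zfp469, Zfp541 and Zfp709, and solute carriers had 3 of 116 (2.59%), Slc27a4, Slc30a10 and Slc5a2. In near-identical family members and in repeated sequence, at these and other named genes, reads may be placed on more than 1 copy or dropped. Their part in the values was not tested.

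None of the other lists had a gene with a lost region at an end. They were Polycomb repressive complex genes (0 of 9), Smchd1 partner and silencing genes (0 of 4), neural stem cell markers (0 of 4), astrocyte and oligodendrocyte markers (0 of 3), endothelial and mural markers (0 of 5), microglial and blood markers (0 of 3), fibroblast and mesenchymal markers (0 of 4) and pluripotency and germ line markers (0 of 1). Kdr, an endothelial receptor gene, had a lost stretch of 252 bp in its body. With so few genes per list, these counts give no share to compare with 3.32%.

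Among noncoding genes, 5 hairpins of the miR-290 cluster lay in 1 lost region. Of 919 autosomal miRNA hairpins in RefSeq, 45 lay in any region and 6 in a lost one. The region chr7:3218305-3219901, 1597 bp long, held Mir290a, Mir290b, Mir292, Mir292b and Mir291b and the promoter window of D7Ertd143e printed above. It was covered to 89.2% in del/fl 1 and 29.8% in del/fl 2, with folds of 3.25 and 2.75 and −log10 q of 1.84 and 1.08. The second peak lay close to the lowest value listed. Mir293, Mir294 and Mir295, further along the cluster, lay in no region of any library. The hairpins on opposite strands (Mir290a with Mir290b, Mir292 with Mir292b) overlap, and all 5 count as 1 region. The sixth hairpin, Mir344h-2, lay in chr7:61741981-61742906, covered to 24.6% and 93.3%, with folds of 2.96 and 2.77.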

How the data were processed

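H3K27me3 ChIP-seq of 2 del/del and 2 del/fl libraries of neural stem cells was used as deposited peak lists, with 4 whole-cell extract samples serving the peak caller as control. Per the submitters' processing notes, bcl2fastq, Bowtie 0.12.9 and the mm10 build were used. Per the file headers, peaks were called per library, not pooled, with MACS2 2.1.0.20140616 in broad mode and with down-sampling. The headers gave a q-value threshold of 0.05, at most 1 tag per position, and a local background from windows of 1000 and 10000 bp. The lowest listed −log10 q was 1.04 in del/del 1 and del/fl 1 and 1.01 in del/del 2 and del/fl 2. The lists thus also held peaks with a q-value above 0.05. Per the file headers, the pileup column holds a signal, the depth of stacked tags. The fold enrichment is the authors' ratio of pileup to background. The lists were deposited with a p-value and a q-value for every peak as −log10. These are per-peak values of the authors and were used only to describe, rank or filter peaks within a list. Control tags used ranged from 15525700 (del/fl 2) to 31629404 (del/del 2). A missing peak says only that none was listed, and the lists give no level there.

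Peaks overlapping by at least 1 bp or touching were merged in Python 3.11.15 (scipy 1.17.1, pandas 2.3.3, numpy 2.4.6, figures in matplotlib 3.10.9). The merging was tested on simulated peaks. Genes (33069 autosomal protein-coding and lncRNA genes), promoters and miRNAs came from RefSeq tables of GRCm38.p6, the assembly of mm10, and no genome sequence was used here. A gene end is the stretch within 2.5 kb of an annotated start or stop. The members and the 20 gene lists were chosen with earlier results of these data known. Named were the 10 longest and the 10 most enriched lost regions, the 3 clusters with most of them, the 12 protein-coding genes with most lost bases at their ends, up to 4 genes per list, and the regions at the edge of the rule. Genes and clusters chosen otherwise are marked as chosen after their values were seen, as were the largest numbers of lost regions per gene. Library cover was compared with an exact permutation test. Alternatives were stricter thresholds, lists of equal length, wider or no joining, a length minimum, each library left out and a replicate block. A minimum pileup of 6 in every list was added after seeing the data. A few genes of these lists are not reported here by name.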

Additional observations from a re-analysis of the deposited data

How the results depend on the processing

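The number of lost regions stayed within 1.5 times of 1110 with lists of equal length (859), joins across 1 kb (1007) or 3 kb (749), no joining of touching peaks (1111), peaks of at least 500 bp (786) and a pileup of at least 6 in every list (767, chosen after seeing the data). It was 322 at a −log10 q of at least 2, where 59 overlapped one of the 1110, and 69 at a −log10 q of at least 5, where 1 did. Leaving out a library gave 1563 to 13231 regions: 1563 without del/del 1, 2338 without del/del 2, 13231 without del/fl 1 and 5824 without del/fl 2, since the rule then asks for fewer lists. The difference in autosomal cover, del/del minus del/fl, was −0.127 percentage points. It turned to 0.102 without del/del 1 and to 0.112 without del/fl 2, in a range of −0.366 to 0.112. With the replicate number as a block, its exact p was 0.5, the smallest that 2 pairs allow. Same-numbered libraries deviated together, with a correlation of 0.490 over 12509 windows of 100 kb, but the labels do not say that a number marks a shared line. Paired by number, regions with a control peak only against a deleted-cell peak only numbered 7241 and 6574 in pair 1 and 14069 and 13335 in pair 2. In the crossed pairs they numbered 15990 and 5535 (del/del 1 with del/fl 2) and 5998 and 15052 (del/del 2 with del/fl 1). The 29 clusters became 15 with joins of up to 50 kb, 44 with 200 kb, 17 at a pileup of at least 6, 3 with peaks joined across 3 kb and 0 at a −log10 q of at least 5. The share at a gene end was 32.9% at a −log10 q of at least 2 and 68.1% at 5, against 21.4%. The share within 5 kb of a kept region was 18.9% and 5.80% there, against 27.03%. Of 72 named regions and genes, each taken by its longest lost region and some sharing one, 39 had no difference in cover left at a −log10 q of at least 2, and 71 had none at 5. The lists reached down to a pileup of 5 or 6, and weaker enrichment would not be listed.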
